A study of Mus musculus with 3 samples.

Results

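Fibroblasts positive for Ccl19, Grem1 and Cpz were described in dorsal skin of mice with chemotherapy-induced alopecia (CIA), by single-cell RNA sequencing. The cells were chosen by their own UMI counts, so the levels of the gate's genes describe them and are no finding. A cell was counted when it had at least 500 detected genes, at most 15% mitochondrial UMIs, at least 10 UMIs of Col1a1, Col1a2 and Col3a1 together, at least 1 UMI of Pdgfra and at least 4 UMIs of Ccl19, Grem1 and Cpz together. It also had to have at most 2 UMIs of Pi16 and Dpp4 together, at most 1 UMI of Corin, fewer than 10 UMIs of Krt5 and Krt14 together and 0 UMIs of Ptprc and Pecam1. A UMI, or unique molecular identifier, tags 1 captured transcript. Of 51191 deposited barcodes 45846 passed the limits on genes and mitochondrial UMIs, 3181 of these were fibroblasts by the collagen and Pdgfra limits and the exclusions other than that on Pi16 and Dpp4, and 198 were the gated fibroblasts described here. There were 41 in the CIA+VFX library, 48 in the CIA library and 109 in the Cont library. The remaining 893, 1347 and 743 fibroblasts of CIA+VFX, CIA and Cont are called other fibroblasts.

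The study set out 3 groups of 9-week-old female C57BL/6 mice, each represented by 1 library: mice of the CIA model treated with venlafaxine (CIA+VFX), mice of the CIA model (CIA) and vehicle-treated controls (Cont). Venlafaxine is an antidepressant that blocks reuptake of serotonin and noradrenaline. Back skin was depilated with wax in all groups and digested with collagenase, and red cells were lysed and debris removed on Percoll, so the libraries hold the cells that survive digestion of whole dorsal skin. The chemotherapy drug, the doses, the day of sampling and the number of mice per library were not given in the labels. With 1 library per group there was no replicate: differences between libraries were not tested, no p-value is given, and the 95% intervals below (exact Poisson for a level, exact Clopper-Pearson for a share, exact conditional binomial for a ratio) cover counting error only.

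Fibroblasts build the collagen matrix of the dermis and carry signals to hair follicles, vessels and immune cells. Ccl19 is a chemokine that draws dendritic cells and T cells bearing its receptor Ccr7 and is a product of the stromal cells of lymph nodes. Grem1 is a secreted antagonist of bone morphogenetic proteins, and Cpz is a secreted carboxypeptidase with a cysteine-rich domain like that of the Wnt receptors of the Frizzled family. Ndufa4l2, the marker given with the gate but not used by it, is a mitochondrial protein induced in hypoxia.

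The gated fibroblasts had a median of 10167 UMIs and 3276 genes per cell in CIA+VFX, 10268 UMIs and 3069 genes in CIA and 9027 UMIs and 2795 genes in Cont. There were 467256 UMIs of gated cells in CIA+VFX, 546805 in CIA and 971751 in Cont. Levels are in CPM, the usual scaled count: the UMIs of a gene summed over the gated cells of a library, relative to all their UMIs. Between 75 and 110 barcodes were shared by each pair of libraries, and 0 of them belonged to gated cells. A simulated-doublet score called 5.06% to 6.65% of kept cells as doublets, among them 0 gated cells in CIA+VFX, 0 in CIA and 2 in Cont, which were kept. In cells with at least 3 Ptprc UMIs, which are immune cells, a Ccl19 UMI was found in 0.307% to 0.542% of cells, a Grem1 UMI in 0.136% to 0.241%, a Cpz UMI in 0.136% to 0.53% and an Ndufa4l2 UMI in 0.633% to 1.02%, at median depths of 5454 to 6303 UMIs. These shares are used as the background here, and free RNA, doublets and expression in immune cells were not told apart. Summed markers of other cell types were lower in gated than in all kept cells, apart from Schwann cells, and from melanocytes in CIA+VFX and Cont. The summed T cell markers were at 2.14 CPM in CIA+VFX, 3.66 CPM in CIA and 6.17 CPM in Cont, with 6, 6 and 4 of 7 at 0. The keratinocyte markers were at 205, 152 and 134 CPM in CIA+VFX, CIA and Cont, against 3966, 3539.8 and 3168 CPM over all kept cells of the same libraries. The endothelial markers summed to 12.8 CPM in CIA+VFX, 49.4 CPM in CIA and 6.17 CPM in Cont, and the pericyte markers to 17.1, 36.6 and 67.9 CPM. The macrophage markers summed to 51.4, 67.7 and 110.1 CPM in CIA+VFX, CIA and Cont, and the adipocyte markers to 0, 23.8 and 0 CPM. Over all kept cells the pericyte markers summed to 226, 181 and 89.7 CPM. The Schwann cell markers summed to 109, 117 and 76.2 CPM in gated cells, against 70.5, 94.7 and 65.8 CPM over all kept cells. The melanocyte markers summed to 244, 161 and 298 CPM in gated cells, against 215, 179 and 296 CPM over all kept cells.

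The members matched the 3-gene label best in Cont. There, 48 of 109 cells (44%) held UMIs of all 3 genes and 6 (5.5%) of only 1. In CIA+VFX 8 of 41 cells (19.5%) held all 3 and 18 (43.9%) only 1, and in CIA 6 of 48 (12.5%) held all 3 and 27 (56.2%) only 1. Ccl19 was the gene with the most UMIs in 22 of 41 cells in CIA+VFX, 39 of 48 in CIA and 35 of 109 in Cont, while Cpz led in 8, 3 and 44 cells and Grem1 in 10, 5 and 19 cells of CIA+VFX, CIA and Cont. The median cell had 4 Ccl19 UMIs in CIA+VFX, 7 in CIA and 4 in Cont, 0, 0 and 1 Grem1 UMIs, and 2, 0 and 4 Cpz UMIs. In Cont the label's 3 genes mostly came together in pairs or all at once, while in CIA 27 of 48 cells carried 1 of them only, mostly Ccl19. A copy of Ccl19, the pseudogene Ccl19-ps2, stood at 235, 307 and 276 CPM in CIA+VFX, CIA and Cont, so the counts of Ccl19 may be split between the copies.

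Ndufa4l2 followed the same order. An Ndufa4l2 UMI was found in 29 of 41 gated cells (70.7%) in CIA+VFX, 22 of 48 (45.8%) in CIA and 103 of 109 (94.5%) in Cont, and the level was 404 CPM in CIA+VFX, 199 CPM in CIA and 1066 CPM in Cont. In other fibroblasts the shares were 23.3% in CIA+VFX, 24.4% in CIA and 33% in Cont, at 85.2, 81.5 and 269 CPM. All of these shares lay above those in immune cells. By share of cells the gated fibroblasts of CIA were the closest to other fibroblasts in this marker, and those of Cont the farthest. The position of the threshold bears on this: the 14, 16 and 12 cells with 4 or 5 UMIs of the 3 genes in CIA+VFX, CIA and Cont held 51.5, 69 and 577 CPM of Ndufa4l2, and the 21, 45 and 28 cells just outside with 2 or 3 UMIs held 144, 32.2 and 219 CPM. Cells with at least 6 UMIs numbered 27, 32 and 97 and held 655, 246 and 1120 CPM.

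**Figure D1:**
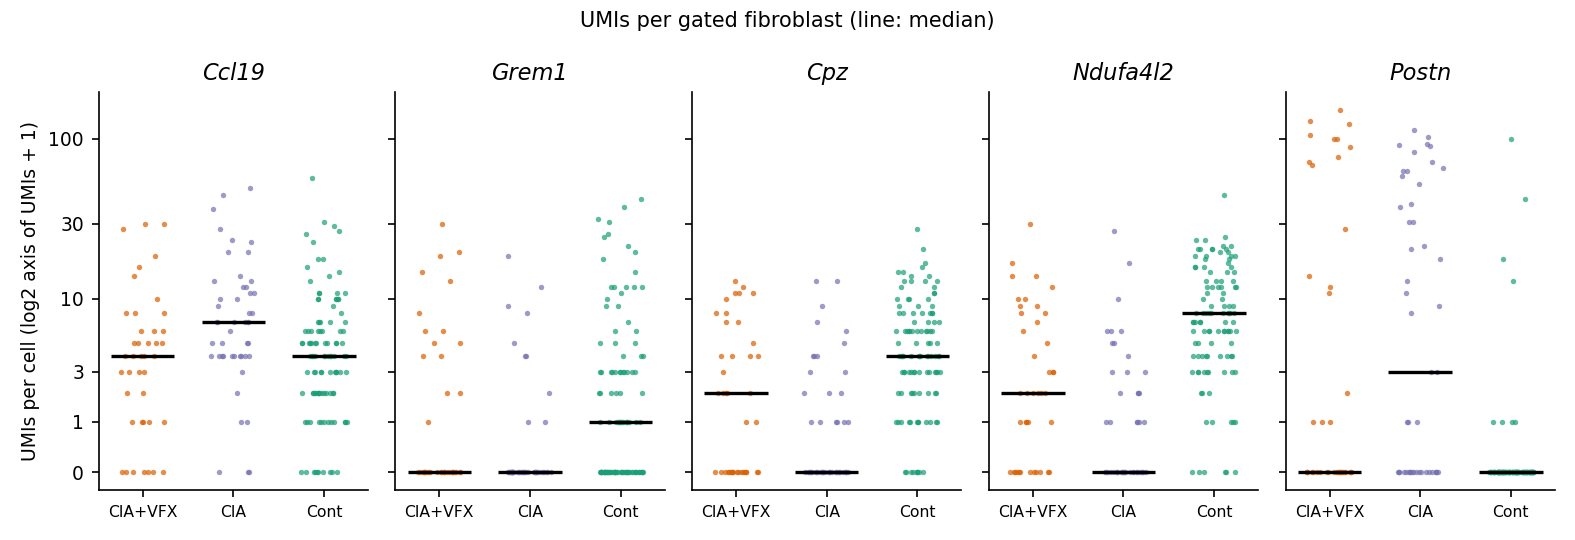
UMIs per gated cell of Ccl19, Grem1, Cpz, Ndufa4l2 and Postn, on a log2 axis of UMIs + 1, for the CIA+VFX, CIA and Cont libraries. Each point is 1 cell, spread sideways, and the bar is the median. Cpz and Ndufa4l2 had medians of 0 UMIs in CIA against 4 and 8 in Cont, while the Ccl19 median was 7 in CIA against 4 in Cont.

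Each gate gene was also read in cells gated on the other 2 genes (at least 3 UMIs of them), so that its own UMIs did not choose the cells. Ccl19 then stood at 479 CPM in CIA+VFX, 854 CPM in CIA and 641 CPM in Cont, in 25, 17 and 94 cells. Grem1 stood at 197 CPM in CIA+VFX, 72.3 CPM in CIA and 405 CPM in Cont, in 42, 61 and 115 cells, with a log2 ratio of -2.49 in CIA over Cont and 1.44 in CIA+VFX over CIA. Cpz stood at 257, 106 and 536 CPM in CIA+VFX, CIA and Cont, in 39, 55 and 99 cells, with log2 ratios of -2.34 and 1.28 for those pairs of libraries. Read this way Grem1 and Cpz were lower in CIA than in Cont, and Ccl19 was not (log2 ratio 0.41, from 17 cells in CIA). The other 2 gate genes still chose the cells, and Ccl19 led in 39 of the 48 gated cells of CIA. These values therefore describe the chosen cells and are no finding.

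Divided by whether they held a UMI of Cpz, a gene of the gate, the gated cells showed 2 contrasting profiles that overlapped. Cells with a Cpz UMI numbered 23 of 41 in CIA+VFX, 20 of 48 in CIA and 100 of 109 in Cont. In these cells the matrix protein Sparc, which binds collagen, was high: 28761 against 7189 CPM in CIA+VFX, 24969 against 8255 CPM in CIA and 34573 against 11211 CPM in Cont, with the cells holding a Cpz UMI given first. Cdh4, the cell adhesion protein R-cadherin, stood at 546 against 103 CPM in CIA+VFX, 363 against 101 CPM in CIA and 768 against 262 CPM in Cont for the same pairs of cells. Ndufa4l2 stood at 725 against 81.6 CPM in CIA+VFX, 359 against 74.8 CPM in CIA and 1117 against 394 CPM in Cont. Col1a1, the main fibrillar collagen chain and a gene of the gate, was at 21036 against 4804 CPM in CIA+VFX, 15819 against 5255 CPM in CIA and 25306 against 5408 CPM in Cont. Igfbp2, which binds insulin-like growth factors, stood at 887 against 155 CPM in CIA+VFX, 727 against 35.8 CPM in CIA and 1202 against 758 CPM in Cont. In every library these 5 genes were higher in the cells with a Cpz UMI.

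Cells without a Cpz UMI numbered 18 in CIA+VFX, 28 in CIA and 9 in Cont, and they could enter the gate only with at least 4 UMIs of Ccl19 and Grem1 together. Postn, the matricellular protein periostin, stood at 686 against 3954 CPM in CIA+VFX, 1608 against 2662 CPM in CIA and 66.4 against 1706 CPM in Cont, again with the cells holding a Cpz UMI first. A Postn UMI was found in 6 of 23 cells with a Cpz UMI and 12 of 18 without in CIA+VFX, in 9 of 20 and 19 of 28 in CIA, and in 6 of 100 and 2 of 9 in Cont. Lpl, the lipoprotein lipase, stood at 435 against 3210.1 CPM in CIA+VFX, 647 against 2099 CPM in CIA and 142 against 1268 CPM in Cont. Col14a1, a fibril-associated collagen, was at 213 against 1057 CPM in CIA+VFX, 326 against 628 CPM in CIA and 44.3 against 219 CPM in Cont. Cxcl13, a chemokine that draws B cells, stood at 51.2 against 821 CPM in CIA+VFX and 155 against 1581 CPM in CIA, and Fgf23, a hormone that controls phosphate, at 21.3 against 374 CPM in CIA+VFX and 25.1 against 485 CPM in CIA. In the 9 Cont cells without a Cpz UMI both genes were at 0. These genes were higher in cells without a Cpz UMI in CIA+VFX and in CIA. Ccl19, whose level in both kinds of cell is set in part by the gate, was at 708 against 382 CPM in CIA+VFX, 952 against 862 CPM in CIA and 702 against 598 CPM in Cont. Cells without a Cpz UMI had median depths of 14054, 9573 and 7126 UMIs in CIA+VFX, CIA and Cont, against 9898, 11121 and 9187 UMIs in cells with one.

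Ndufa4l2 and Postn divided the cells in a similar way. In CIA+VFX 22 cells held Ndufa4l2 without Postn, 11 Postn without Ndufa4l2, 7 both and 1 neither. In CIA the counts were 14, 20, 8 and 6 cells, and in Cont 98, 3, 5 and 3. Of the cells with a Cxcl13 UMI, 12 of 12 in CIA+VFX, 11 of 12 in CIA and 2 of 2 in Cont also held Postn, and of those with an Fgf23 UMI, 9 of 10, 12 of 12 and 0 of 1. The reverse was not so. Of the cells with a Postn UMI, 6 of 18 in CIA+VFX, 17 of 28 in CIA and 6 of 8 in Cont had no Cxcl13 UMI, and 9 of 18, 16 of 28 and 8 of 8 no Fgf23 UMI. Because the proportion of Cpz-positive cells differed so much between libraries, each comparison of libraries below also gives its count of called genes in the cells with a Cpz UMI alone, with the values of some genes and lists, an alternative chosen after seeing the data. Choosing these cells does not even out the mix of profiles. Postn was held by 6 of 23 of them in CIA+VFX, 9 of 20 in CIA and 6 of 100 in Cont.

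**Figure D2:**
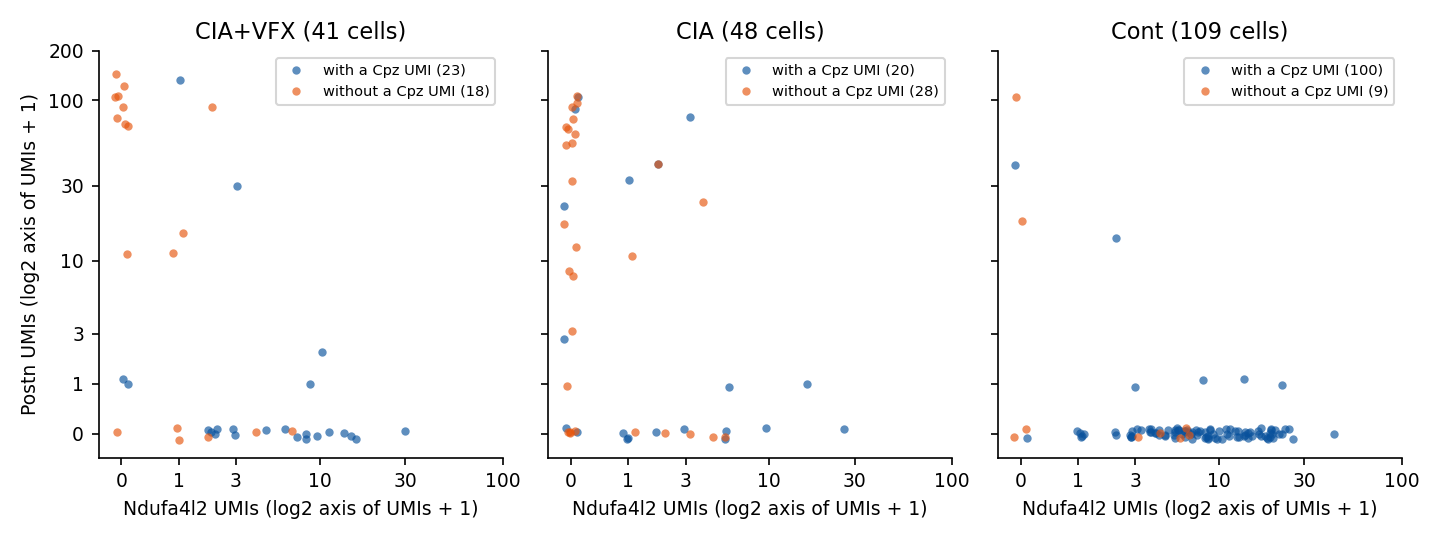
Ndufa4l2 against Postn in each gated cell, for CIA+VFX, CIA and Cont, on log2 axes of UMIs + 1; each point is 1 cell, moved slightly at random so that equal values can be seen. In Cont 98 of 109 cells lie along the Ndufa4l2 axis, while 11 of 41 cells in CIA+VFX and 20 of 48 in CIA lie along the Postn axis.

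Sparc, Igfbp2, Postn and Cxcl13 were also among the 15 genes that varied most from cell to cell. After thinning 40, 47 and 108 cells of CIA+VFX, CIA and Cont to 3000 UMIs each, the variance over the mean had a median of 1.37 over 1617 genes. It was 39.4 in CIA+VFX, 38.4 in CIA and 41.2 in Cont for Sparc, which every thinned cell expressed. For Postn it was 13.5 in CIA+VFX, 8.95 in CIA and 14 in Cont, and for Igfbp2 10.9 in CIA+VFX, 16.5 in CIA and 31.4 in Cont, a gene found in 22.5%, 14.9% and 23.1% of thinned cells. Cxcl1, a chemokine for neutrophils, had 30.2 in CIA+VFX, 29.4 in CIA and 8.34 in Cont, at thinned means of 7.22, 9.57 and 0.519 UMIs. This index rises with the mean, so it is not compared between libraries. Tnfaip6, a hyaluronan-binding protein induced in inflammation, was also among the 15 most variable genes but was found in 92.5%, 93.6% and 92.6% of thinned cells. The others of the 15 were Malat1, Fos, Ccl2, Dcn, Mt1, Ccl7, Tnc, Jun, Gsn.

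Set against other fibroblasts of the same library, the gated cells were higher in all 3 libraries for a group of matrix, adhesion and hormone genes. The gate chose the cells, so these ratios describe them and carry no test. Cdh4 was higher 4.4-fold in CIA+VFX, 3.97-fold in CIA and 3.98-fold in Cont, and Sparc 2.75-fold in CIA+VFX, 2.42-fold in CIA and 3.22-fold in Cont. Ndufa4l2 was higher 4.75-fold in CIA+VFX, 2.45-fold in CIA and 3.96-fold in Cont. Stc1, the hormone stanniocalcin, was at 98.4 against 13.1 CPM in CIA+VFX, 40.2 against 13 CPM in CIA and 209 against 24.8 CPM in Cont. In CIA its UMIs lay in only 2 of 48 gated cells, 63.6% of them in 1 cell. Hgf, the hepatocyte growth factor, was at 107 against 30.8 CPM in CIA+VFX, 174 against 31 CPM in CIA and 175 against 52.7 CPM in Cont, but in CIA+VFX 46% of its UMIs lay in 1 cell and the ratio turned to 0.469-fold when cells were thinned to 3000 UMIs before the gate. Cldn10, a tight junction protein, was at 107 against 27.8 CPM in CIA+VFX, 71.3 against 22.8 CPM in CIA and 229 against 69.7 CPM in Cont. Igfbp2 was at 522 against 172 CPM in CIA+VFX, 338 against 124 CPM in CIA and 1171 against 291 CPM in Cont, though only 26.8%, 18.8% and 26.6% of gated cells held a UMI of it. Cyp26b1, which degrades retinoic acid, was at 372 against 159 CPM in CIA+VFX, 368 against 139 CPM in CIA and 476 against 165 CPM in Cont. Aldh3a1, an aldehyde dehydrogenase, was at 85.6 against 31.3 CPM in CIA+VFX, 25.6 against 12.4 CPM in CIA and 241 against 80.3 CPM in Cont. S100a4, a calcium-binding protein of motile fibroblasts, was at 758 against 315 CPM in CIA+VFX, 636 against 344 CPM in CIA and 1419 against 384 CPM in Cont. Ppic, an endoplasmic reticulum prolyl isomerase, was higher 2.12-fold in CIA+VFX, 2.02-fold in CIA and 2.47-fold in Cont. The other genes with the highest lowest-of-3 ratio were Otulinl, Myo16, Ccl19-ps2, C1qtnf6, Zfp536, Fam180a, Ppp1r14a, Mcoln2, Kdelr3.

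Some genes of neighbouring fibroblast types were low in the gated cells, a few of them at 0, but not every list of such markers was. With gated cells given first, papillary markers summed to 1562 against 1353 CPM in CIA+VFX, 1255 against 1359 in CIA and 1816 against 1458 in Cont. Markers of Pi16 and Dpp4 fibroblasts summed to 7396 against 7193, 7324 against 7847 and 5487 against 7819 CPM. Those of Myoc, Thbs4 and Cilp fibroblasts summed to 957 against 2064, 1289 against 1972 and 768 against 1434 CPM. Myoc, the secreted protein myocilin, was at 0 against 271 CPM in CIA+VFX, 9.14 against 239.7 CPM in CIA and 5.15 against 248 CPM in Cont. Thbs4, a thrombospondin of tendon and fascia, was at 0 against 278 CPM in CIA+VFX, 5.49 against 244 CPM in CIA and 6.17 against 129.8 CPM in Cont. Smpd3, a sphingomyelinase, was at 0 against 79.8 CPM in CIA+VFX, 1.83 against 80.6 CPM in CIA and 5.15 against 191 CPM in Cont. Anxa3, a marker of the Pi16 and Dpp4 fibroblasts, was at 19.3 against 194 CPM in CIA+VFX, 23.8 against 203 CPM in CIA and 20.6 against 279 CPM in Cont. Both secreted Wnt inhibitors Sfrp1 and Sfrp2 were lower. Sfrp1 stood at 27.8 against 164 CPM in CIA+VFX, 40.2 against 176 CPM in CIA and 31.9 against 185 CPM in Cont. Igfbp3, another binder of insulin-like growth factors, stood at 47.1 against 320.4 CPM in CIA+VFX, 76.8 against 527 CPM in CIA and 61.7 against 328 CPM in Cont. The limit on Pi16 and Dpp4 removed 134 cells in CIA+VFX, 228 in CIA and 199 in Cont that met every other limit. Those 561 cells had Cdh4 at 309, 166 and 573 CPM and Ndufa4l2 at 310.0, 251 and 816 CPM in CIA+VFX, CIA and Cont. These levels were close to those of the gated cells and far above the 21.5, 16.2 and 18.4 CPM of Cdh4 in Pi16 and Dpp4 fibroblasts without the 3 gate genes, so the limit keeps out cells with the same leading genes.

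**Figure D3:**
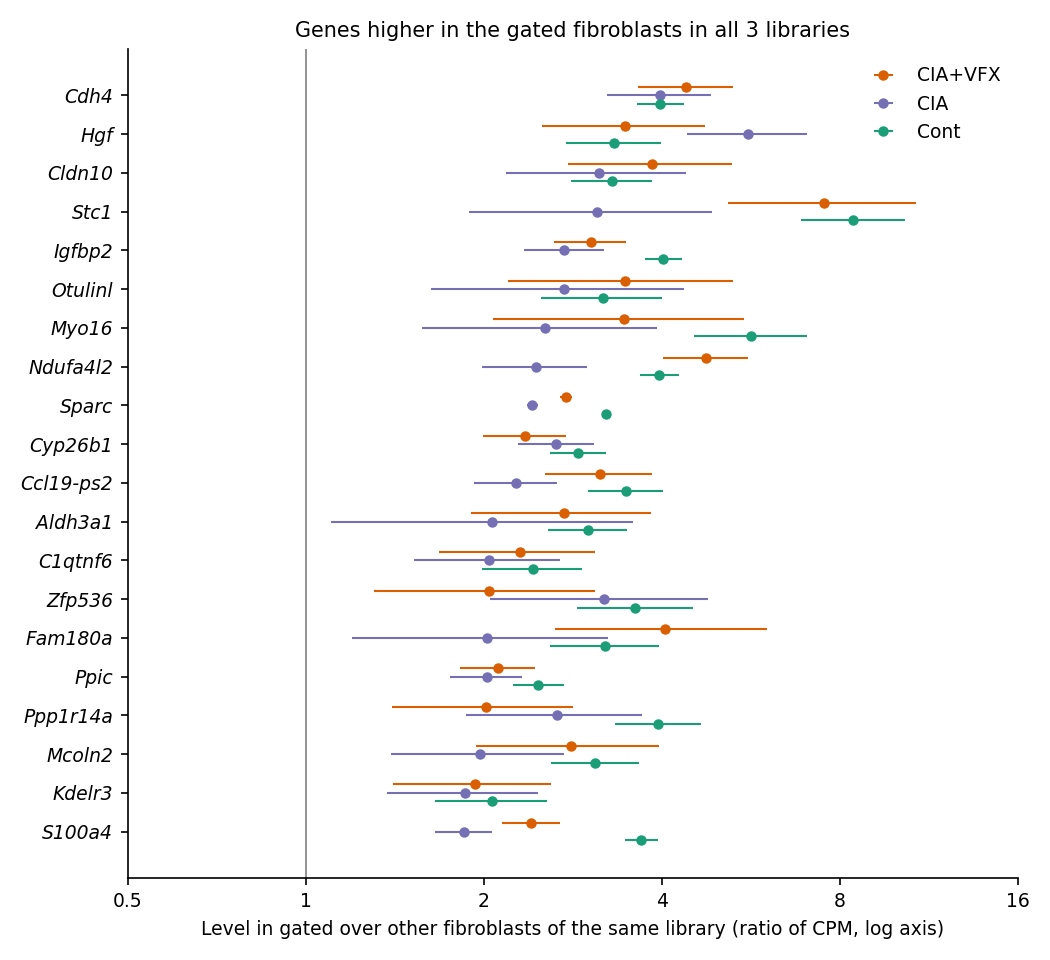
Levels in gated cells over other fibroblasts of the same library, as fold on a log axis with 95% counting intervals, for the 20 genes highest in all 3 libraries; the markers are the CIA+VFX, CIA and Cont libraries. Cdh4 lies close to 4-fold in each library (3.97 to 4.40), while Stc1 spans 3.10-fold in CIA, where 2 cells held it, to 8.43-fold in Cont.

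The gated fibroblasts made up a smaller share of both CIA libraries than of Cont. They were 0.246% of kept cells in CIA+VFX (41 of 16635, interval 0.177% to 0.334%), 0.29% in CIA (48 of 16573, 0.214% to 0.384%) and 0.862% in Cont (109 of 12638, 0.709% to 1.04%). As a share of fibroblasts they were 4.39% in CIA+VFX (interval 3.17% to 5.91%), 3.44% in CIA (2.55% to 4.54%) and 12.8% in Cont (10.6% to 15.2%). The ratio of shares of kept cells was 0.336 for CIA over Cont (0.234 to 0.476) and 0.286 for CIA+VFX over Cont (0.194 to 0.413). For CIA+VFX over CIA it was 0.851 (0.547 to 1.32) of kept cells and 1.28 (0.82 to 1.98) of fibroblasts, on either side of 1 and within counting error of it. All fibroblasts together were 5.61% of kept cells in CIA+VFX, 8.42% in CIA and 6.74% in Cont, so the smaller share in the CIA library was not shared by fibroblasts as a whole. In CIA+VFX all fibroblasts were a smaller share too, with a ratio to Cont of 0.833 (0.758 to 0.915).

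The size of this difference depends on the Pi16 and Dpp4 limit. Without it the cells numbered 175 in CIA+VFX, 276 in CIA and 308 in Cont, or 18.7%, 19.8% and 36.2% of fibroblasts. The ratio of shares of kept cells was then 0.683 for CIA over Cont (0.579 to 0.807), 0.632 for CIA+VFX over CIA (0.52 to 0.766) and 0.432 for CIA+VFX over Cont (0.356 to 0.521). The cells removed by the limit were 14.3%, 16.3% and 23.4% of fibroblasts. Median depth of fibroblasts was 7708 UMIs in CIA+VFX, 8045 in CIA and 9534 in Cont before thinning. When every cell was thinned to 3000 UMIs before the gate, leaving out 4305, 3876 and 2357 shallower kept cells, 22, 31 and 56 cells remained and the ratio for CIA over Cont was 0.448 (0.279 to 0.707).

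**Figure D4:**
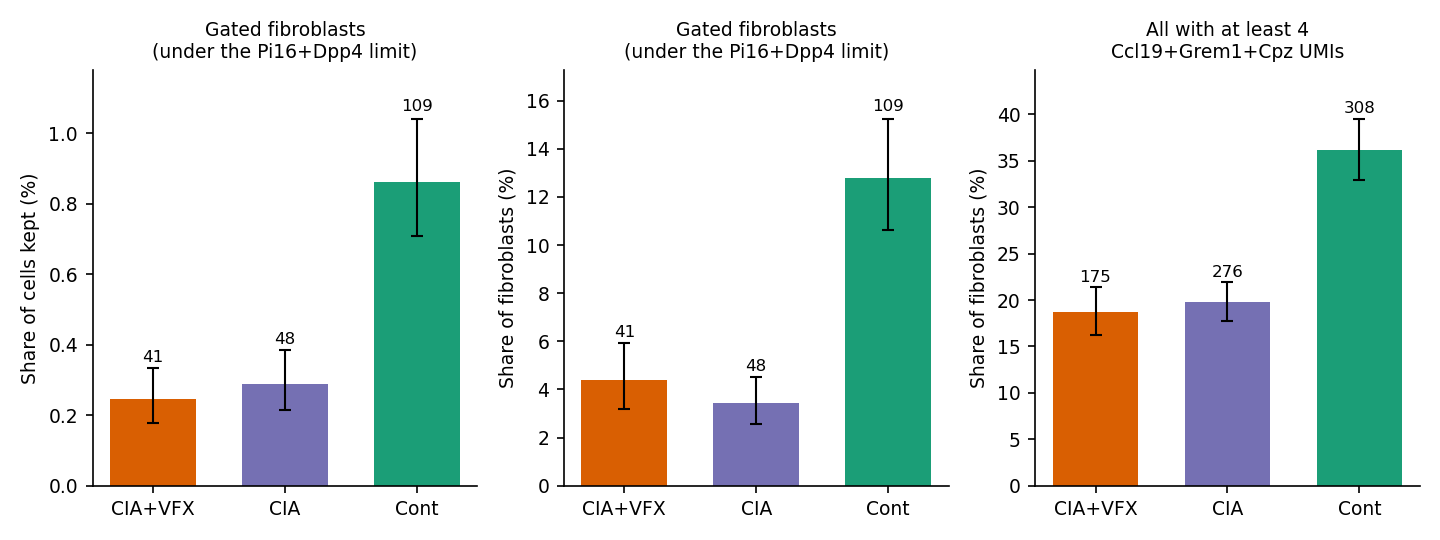
Share of gated fibroblasts among kept cells and among fibroblasts, in percent, for CIA+VFX, CIA and Cont, with exact 95% binomial intervals. The last panel gives the share among fibroblasts of all cells with at least 4 UMIs of Ccl19, Grem1 and Cpz together, without the Pi16 and Dpp4 limit. The 2 CIA libraries lie at 0.246% and 0.29% of kept cells and the Cont library at 0.862%, with no overlap of the intervals with that of Cont.

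Gated fibroblasts of CIA were set against those of Cont, the comparison of the alopecia model with vehicle. The cells of CIA held more Cxcl1, Ptgs2 and chains of type IV and type VI collagen, and less metallothionein, Igfbp5 and hypoxia-inducible Ndufa4l2. A gene is called higher or lower when the libraries differ at least 1.5-fold and the counting interval leaves out equality, among genes with at least 50 UMIs in the 2 libraries together. This describes the libraries and is no test of the condition. Of 4441 genes 1667 (37.5%) were called, 920 (20.7%) higher and 747 (16.8%) lower, with a median log2 ratio over all genes of 0.05. Scaling by TMM, which shifts that median to -0.21, gave 562 higher and 1167 lower calls, and median-of-ratios scaling 638 and 1051, so the balance of directions rests on the scaling; the directions of the named genes below did not change under either. In the 20 and 100 cells with a Cpz UMI 552 genes were called higher and 561 lower, 898 of them the same way as in all gated cells and 0 the opposite way. Without the Pi16 and Dpp4 limit, in 276 and 308 cells, 1314 genes were called higher and 989 lower, 930 of them the same way and 2 the opposite way. The list counts below are to be read against these shares of all genes. Among others, contractile, complement, basement membrane, glycoprotein, heat shock and respiratory chain genes had a larger part of their measured members called higher than the 20.7% of all genes, and hypoxia, papillary, p53 and glucocorticoid lists a larger part called lower than the 16.8%.

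Chemokines and other inflammatory products were among the 12 genes highest in CIA. Cxcl13 was at 956 CPM in CIA, against 6.17 CPM in Cont (log2 ratio 7.28, 6.14 to 8.73), with 53.5% of its CIA UMIs in 1 cell and a log2 ratio of 2.93 without the Pi16 and Dpp4 limit. Cxcl1 was at 3189 CPM in CIA, against 268 CPM in Cont (log2 ratio 3.58, 3.39 to 3.77). Ptgs2, the inducible cyclooxygenase of prostaglandin synthesis, was at 239.6 CPM in CIA, against 12.3 CPM in Cont (log2 ratio 4.28, 3.42 to 5.27). In cells with a Cpz UMI the log2 ratio was 3.37 for Cxcl1 and 4.67 for Ptgs2. Ifi27l2a, an interferon-induced gene, was at 214 CPM in CIA, against 8.23 CPM in Cont (log2 ratio 4.70, 3.67 to 5.95). In other fibroblasts Cxcl13 had a negative ratio, and the log2 ratios of these 4 genes were -0.55, 1.20, 1.06 and 0.28. Of the cytokine and chemokine list 7 of 16 measured members were called higher and 2 lower, with a median log2 ratio of 0.34. Besides Cxcl1, its called members with the most UMIs were 2 receptors and a chemokine for eosinophils. Il1r1, the interleukin-1 receptor, was at 1194 CPM in CIA, against 548 CPM in Cont. Ccl11 stood at 448 CPM in CIA, against 268 CPM in Cont, and Il11ra1, the interleukin-11 receptor, at 616 CPM in CIA, against 172 CPM in Cont. Of the complement and acute phase list 8 of 13 measured members were called higher and 0 lower, with a median log2 ratio of 0.74. C1ra and C1s1, the proteases that start the classical pathway, and their substrate C4b were among them. C1ra stood at 379 CPM in CIA, against 213 CPM in Cont. C1s1 stood at 256 CPM in CIA, against 141 CPM in Cont. C4b stood at 232 CPM in CIA, against 29.8 CPM in Cont. Among cells with a Cpz UMI the counts were 6 of 14 higher and 0 lower, median 0.43 for the cytokines and 5 of 10 higher and 1 lower, median 0.65 for complement.

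The lymphoid stroma list, genes of the cells that organise lymph nodes, had no common direction: 3 of 15 measured members were called higher and 3 lower, with a median log2 ratio of 0.08. Cxcl12, the ligand of Cxcr4, was at 790.0 CPM in CIA, against 105 CPM in Cont. Icam1, an adhesion molecule for leukocytes, was at 627 CPM in CIA, against 385 CPM in Cont. Cd34, a surface sialomucin of fibroblasts and endothelium, was lower at 296 CPM in CIA, against 651 CPM in Cont. The interferon list had 8 higher and 4 lower of 18, and antigen presentation 0 higher and 4 lower of 14. B2m, the light chain of class I molecules, was at 1523 CPM in CIA, against 2313 CPM in Cont. H2-K1 was at 419 CPM in CIA, against 858 CPM in Cont.

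The matrix genes moved apart. Among fibrillar and other collagens 6 of 13 measured members were called higher and 4 lower, with a median log2 ratio of 0.52. Those lower included the main fibrillar chains, which are genes of the gate. Col1a1 stood at 9881 CPM in CIA, against 23901 CPM in Cont. Col1a2 stood at 11580.0 CPM in CIA, against 29279 CPM in Cont. Col3a1 stood at 9406 CPM in CIA, against 14294 CPM in Cont. Those higher were mostly of the microfibrillar and fibril-associated kinds. Col6a1, of the microfibrils around cells, was at 878 CPM in CIA, against 351 CPM in Cont. Col12a1, a fibril-associated collagen, was at 309 CPM in CIA, against 8.23 CPM in Cont (log2 ratio 5.23, 4.22 to 6.47). Of basement membrane genes 7 of 14 measured members were called higher and 2 lower, with a median log2 ratio of 0.60. Both chains of the main type IV collagen were higher, Col4a1 at 1198 CPM in CIA, against 236 CPM in Cont, and Col4a2 at 512 CPM in CIA, against 106 CPM in Cont. The laminin chain Lama2 reached 671 CPM in CIA, against 241 CPM in Cont. Sparc went the other way, at 15574 CPM in CIA, against 32924 CPM in Cont, and because of its level the list summed to 20051 CPM in CIA, against 34875 CPM in Cont. Of proteoglycans and glycoproteins 18 of 39 measured members were called higher and 6 lower, with a median log2 ratio of 0.56. Postn was at 2200.1 CPM in CIA, against 182 CPM in Cont (log2 ratio 3.59, 3.37 to 3.83), against a log2 ratio of 0.16 in other fibroblasts. Prg4, the lubricant lubricin, was at 481 CPM in CIA, against 17.5 CPM in Cont (log2 ratio 4.78, 4.07 to 5.58). Dcn and Lum, proteoglycans that coat collagen fibrils, were lower. Dcn stood at 8608 CPM in CIA, against 17327 CPM in Cont. Lum stood at 1494 CPM in CIA, against 2698 CPM in Cont. Without the Pi16 and Dpp4 limit the log2 ratio of Postn was 1.65, and without its top cell in each library 4.68. Within cells with a Cpz UMI the log2 ratio was 4.60 for Postn and -0.68 for Col1a1, and the glycoprotein list gave 20 of 35 higher and 5 lower, median 0.87. Of these cells 9 of 20 in CIA and 6 of 100 in Cont held Postn. Its ratio there still holds the different mix of cells and is not a change within 1 kind of cell. The collagen list gave 7 of 12 higher and 3 lower, median 1.22, and the basement membrane list 5 of 13 higher and 0 lower, median 0.27.

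The called contractile genes were all higher: 10 of 13 measured members were called higher and 0 lower, with a median log2 ratio of 1.33. Cells with a Cpz UMI gave 7 of 9 higher and 0 lower, median 1.06. For CIA+VFX against Cont only 8 members were measured, so some of the 13 reached the UMI minimum only through the CIA library. Such members have few UMIs in Cont by this selection, which favours a higher call. The count, the median and the single direction are therefore partly set by the minimum. Cald1, Tpm1 and Myh9, actin-binding and motor proteins of most fibroblasts, were higher. Cald1 was at 898 CPM in CIA, against 489 CPM in Cont. Tpm1 was at 366 CPM in CIA, against 174 CPM in Cont. Myh9 was at 333 CPM in CIA, against 133 CPM in Cont. Tagln and Acta2, the markers of smooth muscle and myofibroblasts, were called too and are singled out after their values were seen: 87 of 96 Tagln UMIs and 70 of 93 Acta2 UMIs of CIA lay in 1 cell. Called genes of perivascular and fat-lineage cells were mostly higher. The perivascular fibroblast list had 8 of 14 higher and 2 lower, and the adipogenic list 4 of 8 higher and 0 lower. Lpl was at 1463 CPM in CIA, against 221 CPM in Cont. Fabp4, a fatty acid carrier, was at 252 CPM in CIA, against 16.5 CPM in Cont. The other genes among the 12 highest were a hormone, a BMP regulator, a globin and enzymes of the cell surface and matrix. Fgf23 was at 283 CPM in CIA, against 4.12 CPM in Cont (log2 ratio 6.11, 4.72 to 8.0). Bmper, a binder of bone morphogenetic proteins, was at 223 CPM in CIA, against 13.4 CPM in Cont (log2 ratio 4.06, 3.23 to 5.01). Cygb, the globin cytoglobin, was at 305 CPM in CIA, against 21.6 CPM in Cont (log2 ratio 3.82, 3.16 to 4.55). Adam12, a membrane metalloprotease, was at 611 CPM in CIA, against 52.5 CPM in Cont (log2 ratio 3.54, 3.11 to 4.0). Csgalnact1, an enzyme of chondroitin sulfate synthesis, was at 238 CPM in CIA, against 22.6 CPM in Cont (log2 ratio 3.39, 2.73 to 4.12).

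Genes lower in CIA included secreted growth regulators and genes of detoxification. Angptl1, a secreted angiopoietin-like protein, was at 21.9 CPM in CIA, against 263 CPM in Cont (log2 ratio -3.59, -4.56 to -2.76). Igfbp5 was at 379 CPM in CIA, against 2197 CPM in Cont (log2 ratio -2.54, -2.75 to -2.33). Ndufa4l2 and Stc1, both among the genes that mark the gated cells, were also lower. Ndufa4l2 was at 199 CPM in CIA, against 1066 CPM in Cont (log2 ratio -2.42, -2.72 to -2.13). Stc1 was at 40.2 CPM in CIA, against 209 CPM in Cont (log2 ratio -2.38, -3.08 to -1.74). In other fibroblasts the log2 ratios were -1.02, -1.53, -1.72 and -0.93, each negative too but smaller in size. Enzymes against oxidants and aldehydes and a drug pump formed the next group. Gclc, the catalytic subunit of the first step of glutathione synthesis, was at 16.5 CPM in CIA, against 164 CPM in Cont (log2 ratio -3.31, -4.47 to -2.35). Aldh3a1 was at 25.6 CPM in CIA, against 241 CPM in Cont (log2 ratio -3.23, -4.13 to -2.46). The drug efflux pump Abcb1b was at 18.3 CPM in CIA, against 129 CPM in Cont (log2 ratio -2.81, -3.91 to -1.89). Secreted signals were also among the 12. Flt3l, a growth factor of dendritic cells, was at 25.6 CPM in CIA, against 142 CPM in Cont (log2 ratio -2.47, -3.38 to -1.68). The secreted semaphorin Sema3b was at 21.9 CPM in CIA, against 128 CPM in Cont (log2 ratio -2.54, -3.53 to -1.68). Lsmem1, Taf4b and Serpina3c completed the 12, with log2 ratios of -3.78, -2.88 and -2.73. Within cells with a Cpz UMI the log2 ratio was -1.64 for Ndufa4l2 and -1.80 for Igfbp5, and without the Pi16 and Dpp4 limit -1.88 and -2.39. When cells were thinned before the gate these 2 genes had -1.0 and -1.74, both outside their intervals.

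In the hypoxia and glycolysis list 1 of 26 measured members were called higher and 10 lower, with a median log2 ratio of -0.48, against -0.09 in other fibroblasts. Cells with a Cpz UMI gave 0 of 22 higher and 6 lower, median -0.31. Ndrg1, a stress-induced gene, was at 369 CPM in CIA, against 791 CPM in Cont, but its log2 ratio of -1.10 turned to 0.15 when cells were thinned and was -0.36 without the Pi16 and Dpp4 limit. Adm, the vasodilator adrenomedullin, was at 148 CPM in CIA, against 263 CPM in Cont. The alternative catalytic subunits of collagen prolyl hydroxylase were lower too. P4ha1 was at 216 CPM in CIA, against 348 CPM in Cont. P4ha2 was at 102 CPM in CIA, against 193 CPM in Cont. Called genes of the respiratory chain were mostly higher. Of these 14 of 34 measured members were called higher and 1 lower, with a median log2 ratio of 0.52, close to the 0.42 of other fibroblasts. The called heat shock genes were mostly higher too: 9 of 22 measured members were called higher and 1 lower, with a median log2 ratio of 0.54. The chaperone Hsp90aa1 was at 1832 CPM in CIA, against 1070.2 CPM in Cont. Hsp90ab1 was at 1928 CPM in CIA, against 1004 CPM in Cont. Of p53 targets 2 of 13 measured members were called higher and 6 lower, with a median log2 ratio of -0.04. In cells with a Cpz UMI the p53 list gave 1 of 11 higher and 6 lower, median -0.80, and the heat shock list 13 of 19 higher and 0 lower, median 0.72. The cell cycle inhibitor Cdkn1a was at 514 CPM in CIA, against 915 CPM in Cont. Of the glucocorticoid and clock list 1 of 15 measured members were called higher and 6 lower, with a median log2 ratio of -0.39. Tsc22d3, a glucocorticoid-induced gene, was at 351 CPM in CIA, against 739.9 CPM in Cont. Of papillary markers, known from the upper dermis, 1 of 10 measured members were called higher and 5 lower, with a median log2 ratio of -0.63. The Wnt inhibitor Apcdd1 was at 60.4 CPM in CIA, against 209.9 CPM in Cont.

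Metallothioneins, small proteins that bind zinc and copper and are induced by metals and glucocorticoids, were lower in CIA. Mt1 was at 4715 CPM in CIA+VFX, 3766 CPM in CIA and 12212 CPM in Cont, and Mt2 at 1222 CPM in CIA+VFX, 1132 CPM in CIA and 4467 CPM in Cont. For CIA against Cont the log2 ratio was -1.70 for Mt1 (-1.77 to -1.63) and -1.98 for Mt2 (-2.10 to -1.86), and -1.52 and -1.79 in cells with a Cpz UMI. Without the Pi16 and Dpp4 limit it was -1.24 and -1.37, and when cells were thinned before the gate -1.07 and -1.21, all outside those intervals. In other fibroblasts it was -0.79 and -0.88. The genes are neighbours on mouse chromosome 8. Their promoters, from RefSeq on GRCm38.p6, are shown because both hold copies of the core of the metal response element for which these genes are known. Matches to TGCACNC or TGCGCNC on either strand are in capitals. No matches overlap.

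Mt1, chr8:94178839-94179138, plus strand: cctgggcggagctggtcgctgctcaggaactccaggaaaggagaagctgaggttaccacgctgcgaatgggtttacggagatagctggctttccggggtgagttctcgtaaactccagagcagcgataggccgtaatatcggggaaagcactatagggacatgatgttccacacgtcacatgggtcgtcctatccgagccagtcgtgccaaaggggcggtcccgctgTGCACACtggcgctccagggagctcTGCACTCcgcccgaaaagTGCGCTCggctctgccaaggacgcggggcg
Mt2, chr8:94172368-94172667, plus strand: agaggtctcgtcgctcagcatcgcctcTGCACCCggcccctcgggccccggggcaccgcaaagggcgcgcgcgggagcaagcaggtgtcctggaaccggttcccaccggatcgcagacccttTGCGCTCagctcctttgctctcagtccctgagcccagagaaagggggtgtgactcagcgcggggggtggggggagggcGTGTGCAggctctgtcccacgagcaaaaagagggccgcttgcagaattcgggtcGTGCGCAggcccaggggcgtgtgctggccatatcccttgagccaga

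The Mt1 window, from 250 bases before to 50 after the gene's start, holds 3 matches, all on the plus strand, and the Mt2 window 4, with 2 on each strand. A match was found in 8444 of 32851 promoters of this length (25.7%), and nothing about a factor's binding follows from it. The wider metallothionein and antioxidant list had 4 higher and 6 lower of 24 members. Gpx3, a secreted glutathione peroxidase, was at 605 CPM in CIA, against 129.7 CPM in Cont.

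Signalling lists were mixed. The BMP and TGF-beta list had 4 higher and 9 lower of 29. Tgfbi was at 194 CPM in CIA, against 628 CPM in Cont. The IGF list had 3 higher and 5 lower of 16. A binding protein and a ligand moved apart. Igfbp2 was at 338 CPM in CIA, against 1171 CPM in Cont. Igf1 was at 479 CPM in CIA, against 137 CPM in Cont. Wnt genes had 5 higher and 4 lower of 17, other growth factors 3 higher and 6 lower of 17 and matrix remodelling enzymes 8 higher and 7 lower of 34. Fibroblast transcription factors had 6 higher and 8 lower of 26, axon guidance genes 7 higher and 6 lower of 20 and immediate early genes 4 higher and 8 lower of 34. Mmp3, the protease stromelysin, was at 276 CPM in CIA, against 1104 CPM in Cont, a log2 ratio of -2.0 that was -0.23 without the Pi16 and Dpp4 limit and -0.10 when cells were thinned. The protease inhibitor Timp2 was at 799 CPM in CIA, against 1752 CPM in Cont. Klf4, an early transcription factor, was at 644 CPM in CIA, against 1883 CPM in Cont. Hedgehog had 1 higher and 1 lower of 6, Notch 0 higher and 1 lower of 4, retinoid genes 2 higher and 2 lower of 7 and prostaglandin genes 3 higher and 0 lower of 7. Genes of S phase had 0 higher and 2 lower of 3, those of G2 and M phase 0 higher and 0 lower of 5 and serotonin and adrenergic genes 0 higher and 1 lower of 3, too few to describe the cells by. Markers of Pi16 and Dpp4 fibroblasts had 4 higher and 1 lower of 11, those of Myoc, Thbs4 and Cilp fibroblasts 1 higher and 0 lower of 5 and those of the dermal papilla and sheath 5 higher and 3 lower of 10.

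**Figure D5:**
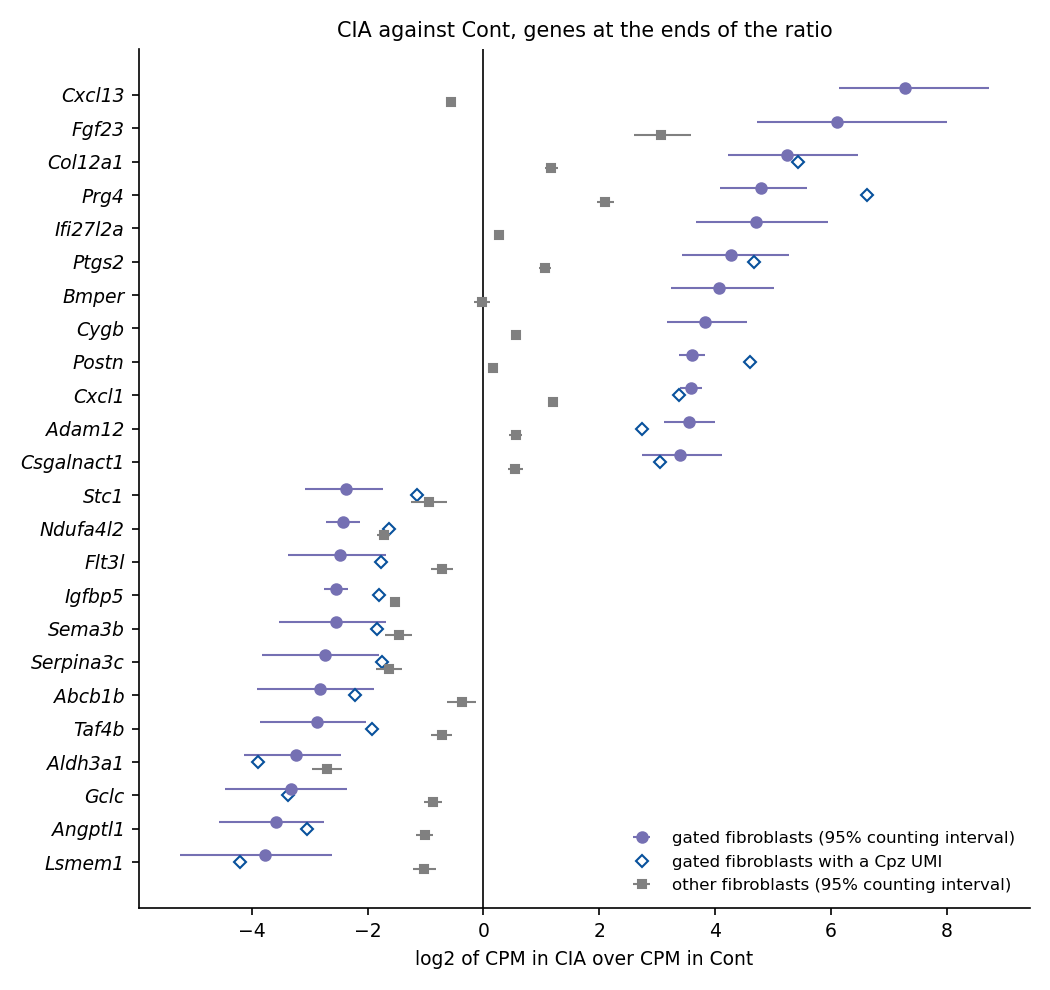
Log2 ratio of CIA over Cont for the 24 genes with the largest ratios either way, in gated fibroblasts (circles, 95% counting intervals), in gated cells with a Cpz UMI (diamonds, left out where the gene had under 50 UMIs) and in other fibroblasts (squares, 95% counting intervals). Postn lies at 3.59 in gated fibroblasts and 0.16 in other fibroblasts, and Ndufa4l2 at -2.42 and -1.72.

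Gated fibroblasts of CIA+VFX were set against those of CIA, the comparison of venlafaxine treatment within the model. The cells of CIA+VFX held more Igfbp5, Ndufa4l2, Angptl1 and Apcdd1 and less Tnc, Timp1 and Gpx3. This comparison shares the CIA library with the one above. Of 3479 genes 487 (14.0%) were called, 273 (7.85%) higher and 214 (6.15%) lower, with a median log2 ratio of 0.01. Among the 23 and 20 cells with a Cpz UMI 190 genes were called higher and 192 lower, of which 154 were called the same way as in all gated cells and 2 the opposite way. Without the Pi16 and Dpp4 limit, in 175 and 276 cells, 390 genes were called higher and 282 lower, and 92 of the 487 calls remained, so most single calls here rest on the exact cells gated. Against these shares of all genes the papillary list, among others, had a larger part of its members called higher, and the contractile, p53 and glycoprotein lists a larger part called lower.

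Secreted regulators and the marker Ndufa4l2 were among the genes higher in CIA+VFX. Igfbp5 was at 997 CPM in CIA+VFX, against 379 CPM in CIA (log2 ratio 1.40, 1.16 to 1.64), and the log2 ratio was 1.46 in cells with a Cpz UMI and 0.11 in other fibroblasts. Ndufa4l2 was at 404 CPM in CIA+VFX, against 199 CPM in CIA (log2 ratio 1.02, 0.67 to 1.37), with 1.01 in cells with a Cpz UMI and 0.06 in other fibroblasts. Without the Pi16 and Dpp4 limit the log2 ratios of Igfbp5 and Ndufa4l2 were 1.21 and 0.46, and when cells were thinned before the gate 1.31 and 0.57. Angptl1 was at 124 CPM in CIA+VFX, against 21.9 CPM in CIA (log2 ratio 2.50, 1.59 to 3.53), with 2.67 in cells with a Cpz UMI and 1.26 without that limit. Mmp3 was at 567 CPM in CIA+VFX, against 276 CPM in CIA (log2 ratio 1.04, 0.74 to 1.34), but had 0.07 without that limit. Receptor, nuclear and surface proteins followed. Il1rap, the accessory chain of the interleukin-1 receptor, was at 220.4 CPM in CIA+VFX, against 80.5 CPM in CIA (log2 ratio 1.45, 0.93 to 2.0). Id2, an inhibitor of helix-loop-helix factors, was at 312 CPM in CIA+VFX, against 129.8 CPM in CIA (log2 ratio 1.27, 0.85 to 1.70). Sulf1, an enzyme that trims heparan sulfate outside the cell, was at 342 CPM in CIA+VFX, against 165 CPM in CIA (log2 ratio 1.06, 0.68 to 1.45). Tsc22d2 and Arih1, a ubiquitin ligase, had log2 ratios of 1.16 and 0.96. Others rested on few cells or on the mixture: 58.1% of Map1b UMIs of CIA+VFX lay in 1 cell, the chemokine Cxcl2 had a log2 ratio of 1.0 that was -0.19 without its top cell, and the stress factor Atf3 and vinculin, Vcl, had 0.94 and 0.93 but -0.12 and -0.72 in cells with a Cpz UMI.

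Matrix, complement and interferon-induced genes were among those lower in CIA+VFX. Tnc, the matricellular protein tenascin C, was at 274 CPM in CIA+VFX, against 872 CPM in CIA (log2 ratio -1.67, -1.96 to -1.39), with -2.26 in cells with a Cpz UMI and -0.56 in other fibroblasts. When cells were thinned before the gate the log2 ratio of Tnc was -0.55, outside that interval. Timp1, an inhibitor of matrix proteases, was at 233 CPM in CIA+VFX, against 620.0 CPM in CIA (log2 ratio -1.41, -1.74 to -1.09), with -0.51 in other fibroblasts. Gpx3 was at 259 CPM in CIA+VFX, against 605 CPM in CIA (log2 ratio -1.23, -1.54 to -0.92). The rest of the group were inflammatory and metabolic genes. Ptgs2 was at 103 CPM in CIA+VFX, against 239.6 CPM in CIA (log2 ratio -1.22, -1.73 to -0.73). The complement factor C4b was at 77 CPM in CIA+VFX, against 232 CPM in CIA (log2 ratio -1.59, -2.17 to -1.05). With no Pi16 and Dpp4 limit the log2 ratio was -0.04 for Ptgs2, -0.27 for C4b, -0.76 for Tnc, -0.91 for Timp1 and -0.62 for Gpx3. Hmgcs1, an enzyme of cholesterol synthesis, was at 81.3 CPM in CIA+VFX, against 190.2 CPM in CIA (log2 ratio -1.23, -1.80 to -0.68). The interferon-induced Ifi27l2a and Bst2 had log2 ratios of -1.74 and -1.25, and Chl1, Csrp2 and Arhgap24 of -1.30, -1.40 and -1.28. Mgp, an inhibitor of calcification, had the lowest ratio (-3.34), with 46.5% of its CIA UMIs in 1 cell.

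By list, the called papillary markers were all higher: 4 of 8 measured members were called higher and 0 lower, with a median log2 ratio of 0.57. Apcdd1 was at 116 CPM in CIA+VFX, against 60.4 CPM in CIA. Trps1, a transcription factor needed for hair, was at 239.7 CPM in CIA+VFX, against 154 CPM in CIA. The other 2 were Wnt regulators from outside the cell. The inhibitor Wif1 was at 83.5 CPM in CIA+VFX, against 27.4 CPM in CIA. The amplifier Rspo1 was at 77 CPM in CIA+VFX, against 29.3 CPM in CIA. In cells with a Cpz UMI the counts were 2 of 5 higher and 0 lower, median 0.32. With no Pi16 and Dpp4 limit 1 of 13 was called higher and 0 lower. Contractile genes had 0 higher and 6 lower of 13, led by Tagln and Acta2, whose CIA UMIs lay mostly in 1 cell. Some of the 13 reached the UMI minimum only through the CIA library, which favours a lower call, so this count is partly set by the minimum. Myh9 was at 178 CPM in CIA+VFX, against 333 CPM in CIA. Basement membrane genes had 0 higher and 0 lower of 12, and Col4a1, at 905 CPM in CIA+VFX, against 1198 CPM in CIA, was not called. Collagens had 1 higher and 3 lower of 13 and glycoproteins 3 higher and 7 lower of 38, but in cells with a Cpz UMI the collagens gave 0 of 12 higher and 6 lower, median -0.45, and the glycoproteins 2 of 30 higher and 14 lower, median -0.51. The basement membrane list gave 0 of 11 higher and 3 lower, median -0.40 in those cells. Lum, among the higher, was at 2444 CPM in CIA+VFX, against 1494 CPM in CIA. Heat shock genes had 0 higher and 2 lower of 21. Hsph1 was at 419 CPM in CIA+VFX, against 713 CPM in CIA. In cells with a Cpz UMI the heat shock list gave 0 of 17 higher and 10 lower, median -0.80. Respiratory chain genes had 0 higher and 3 lower of 28, hypoxia and glycolysis 1 higher and 2 lower of 19, p53 targets 2 higher and 4 lower of 10 and complement 0 higher and 3 lower of 13. Cdkn1a was at 280.4 CPM in CIA+VFX, against 514 CPM in CIA. C3, the central complement component, was at 131 CPM in CIA+VFX, against 262 CPM in CIA.

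BMP and TGF-beta genes had 5 higher and 2 lower of 24, Wnt genes 5 higher and 2 lower of 15, the IGF list 3 higher and 2 lower of 15, other growth factors 4 higher and 3 lower of 16 and matrix remodelling enzymes 3 higher and 4 lower of 33. Cytokines and chemokines had 1 higher and 1 lower of 15, the lymphoid stroma list 2 higher and 1 lower of 13 and the interferon list 0 higher and 3 lower of 12. The adhesion molecule Vcam1 was at 280.4 CPM in CIA+VFX, against 154 CPM in CIA. Antioxidant genes had 2 higher and 1 lower of 21; Mt1 and Mt2, with log2 ratios of 0.32 and 0.11, were not called. Serotonin and adrenergic genes, the pathways that venlafaxine acts on, had 1 measured of 29 and 0 called.

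Gated fibroblasts of CIA+VFX were set against those of Cont, which gives the treated model beside vehicle and shares a library with each comparison above. The cells of CIA+VFX held more Postn, Lpl, Cxcl12 and Cxcl1 and less Mt1, Mt2 and Ndufa4l2. Of 4235 genes 1164 (27.5%) were called, 646 (15.3%) higher and 518 (12.2%) lower, with a median of 0.06. TMM scaling gave 364 higher and 863 lower at a median of -0.16, and median-of-ratios scaling 421 and 769. In the 23 and 100 cells with a Cpz UMI 315 genes were called higher and 322 lower, 454 the same way as in all gated cells and 1 the opposite way. Without the Pi16 and Dpp4 limit, in 175 and 308 cells, 972 genes were called higher and 603 lower, 545 of them the same way and 3 the opposite way. Against these shares of all genes the perivascular and glycoprotein lists, among others, had a larger part of their members called higher, and the hypoxia and antigen presentation lists a larger part called lower.

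Matrix and lipid genes were among those highest in CIA+VFX. Postn was at 2314 CPM in CIA+VFX, against 182 CPM in Cont (log2 ratio 3.67, 3.44 to 3.90), with 3.37 in cells with a Cpz UMI, 1.71 without the Pi16 and Dpp4 limit and 0.65 in other fibroblasts. Of the 161 Postn UMIs in the 23 CIA+VFX cells with a Cpz UMI, 128 lay in 1 cell, so the 3.37 rests mostly on that cell. Lpl was at 1817 CPM in CIA+VFX, against 221 CPM in Cont (log2 ratio 3.04, 2.82 to 3.26), against -0.05 in other fibroblasts. Col14a1 was at 633 CPM in CIA+VFX, against 56.6 CPM in Cont (log2 ratio 3.48, 3.07 to 3.93), against 0.15 in other fibroblasts. Ptx3, a pattern recognition protein of inflammation, was at 618 CPM in CIA+VFX, against 63.8 CPM in Cont (log2 ratio 3.28, 2.88 to 3.70), against -0.81 in other fibroblasts. Cxcl13, Cxcl1, Prg4 and Cygb, high in CIA as well, had log2 ratios of 6.14, 3.32, 3.93 and 3.56. Of the CIA+VFX UMIs 53.2% of Cxcl13 and 47.2% of Prg4 lay in 1 cell, and without the Pi16 and Dpp4 limit the log2 ratios were 2.87 and 2.89. In cells with a Cpz UMI the log2 ratio was 1.62 for Lpl, 1.63 for Cxcl12 and 3.96 for Cxcl1. Of these cells 5 of 23 in CIA+VFX and 18 of 100 in Cont held a Cxcl1 UMI, and 6 and 28 an Lpl UMI. When cells were thinned before the gate the log2 ratio of Cxcl1 was 1.70. The others included a protease inhibitor, a cell cycle inhibitor and 2 enzymes that act outside or on the way out of the cell. Ctla2a, an inhibitor of cysteine proteases, was at 488 CPM in CIA+VFX, against 41.2 CPM in Cont (log2 ratio 3.57, 3.08 to 4.09). Cdkn1c, the cell cycle inhibitor p57, was at 419 CPM in CIA+VFX, against 51.5 CPM in Cont (log2 ratio 3.03, 2.57 to 3.51). Pcsk5, a proprotein convertase, was at 633 CPM in CIA+VFX, against 78.2 CPM in Cont (log2 ratio 3.02, 2.65 to 3.40). Sulf1 was at 342 CPM in CIA+VFX, against 28.8 CPM in Cont (log2 ratio 3.57, 2.99 to 4.21).

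Mt2 had the most UMIs of the 12 genes lowest in CIA+VFX. It was at 1222 CPM in CIA+VFX, against 4467 CPM in Cont (log2 ratio -1.87, -2.0 to -1.74), with -1.37 in cells with a Cpz UMI and -1.01 in other fibroblasts. Without the Pi16 and Dpp4 limit its log2 ratio was -1.41, and when cells were thinned before the gate -1.48. None of the next 3 had more than 50 CPM in CIA+VFX. Iigp1, an interferon-induced GTPase, was at 47.1 CPM in CIA+VFX, against 203 CPM in Cont (log2 ratio -2.11, -2.81 to -1.47). Iqgap2, a scaffold of the cytoskeleton, was at 29.96 CPM in CIA+VFX, against 135 CPM in Cont (log2 ratio -2.17, -3.08 to -1.37). The efflux pump Abcb1b was at 27.8 CPM in CIA+VFX, against 129 CPM in Cont (log2 ratio -2.21, -3.16 to -1.38). The stem cell receptor Lgr5 had the lowest ratio (-4.31, interval -6.61 to -2.73), with 96% of its Cont UMIs in 1 cell. Fam117b, Mirg, Negr1, Dhx40, Tmtc2, Lsmem1 and Rin2 had log2 ratios between -2.69 and -1.88. Ndufa4l2 was at 404 CPM in CIA+VFX, against 1066 CPM in Cont (log2 ratio -1.40, -1.63 to -1.17) in all gated cells and had a log2 ratio of -0.62 in cells with a Cpz UMI, and Cdh4 had -1.17 and -0.49. When cells were thinned these 2 genes had -0.43 and 0.20. Ndufa4l2 and Cdh4 were therefore closer to Cont among the cells with a Cpz UMI than over all gated cells.

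By list, hypoxia and glycolysis had 1 higher and 12 lower of 24 (median -0.62). Ndrg1 was at 522 CPM in CIA+VFX, against 791 CPM in Cont. P4ha1 was at 203 CPM in CIA+VFX, against 348 CPM in Cont. Adm was at 169 CPM in CIA+VFX, against 263 CPM in Cont. The 1 member higher was Hk2, a hexokinase that starts glycolysis, at 272 CPM in CIA+VFX, against 179 CPM in Cont. The median changed sign to 0.25 when cells were thinned, and cells with a Cpz UMI gave 0 of 23 higher and 7 lower, median -0.42. Antigen presentation had 0 higher and 7 lower of 12 (median -0.60). B2m was at 1425 CPM in CIA+VFX, against 2313 CPM in Cont. H2-K1 was at 458 CPM in CIA+VFX, against 858 CPM in Cont. Cells with a Cpz UMI gave 0 of 12 higher and 1 lower, median -0.31 for that list. Perivascular markers had 8 higher and 2 lower of 13. Cxcl12 was at 729.8 CPM in CIA+VFX, against 105 CPM in Cont. Apoe, a lipid carrier, was at 766 CPM in CIA+VFX, against 460.0 CPM in Cont. Cells with a Cpz UMI gave 3 of 10 higher and 1 lower, median 0.29. Basement membrane genes had 5 higher and 3 lower of 13, and cells with a Cpz UMI gave 2 of 13 higher and 2 lower, median 0.07. Col4a1 was at 905 CPM in CIA+VFX, against 236 CPM in Cont, a log2 ratio of 1.94 that was 0.42 in cells with a Cpz UMI and -0.015 when cells were thinned. Collagens had 5 higher and 3 lower of 13; the lower ones were Col1a1 and Col1a2, which the gate used, and Col16a1. Glycoproteins had 12 higher and 4 lower of 36, remodelling enzymes 6 higher and 7 lower of 33, respiratory chain genes 10 higher and 1 lower of 31, heat shock genes 4 higher and 0 lower of 22 and contractile genes 3 higher and 0 lower of 8. Under TMM scaling the respiratory chain list gave 3 higher and 2 lower, and its median of 0.34 was close to the 0.30 of other fibroblasts. The heat shock median of 0.33 changed sign in cells with a Cpz UMI, which gave 1 of 19 higher and 2 lower, median -0.20. Cytokines and chemokines had 6 higher and 3 lower of 16. Ccl7 and Ccl2, which draw monocytes, were lower and Il6 higher. Ccl7 was at 1171 CPM in CIA+VFX, against 1937 CPM in Cont. Ccl2 was at 479 CPM in CIA+VFX, against 860.3 CPM in Cont. Il6 was at 520.1 CPM in CIA+VFX, against 225 CPM in Cont. Complement genes had 5 higher and 1 lower of 11, p53 targets 0 higher and 5 lower of 13 and the IGF list 2 higher and 4 lower of 16. BMP and TGF-beta genes had 3 higher and 6 lower of 27, Wnt genes 4 higher and 3 lower of 15, papillary markers 1 higher and 2 lower of 10 and the adipogenic list 4 higher and 0 lower of 8.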

How the data were processed

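Single-cell 3-prime libraries of dorsal skin were analysed from the UMI counts per gene and barcode that the authors deposited. Per the file headers the counts came from Cell Ranger 8.0.1, and per the submitters' processing notes the reads were checked with FastQC 0.11.7 and the genome build was GRCm39. These are filtered matrices of raw UMI counts, not normalized.

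Barcodes under 500 genes or above 15% mitochondrial UMIs were dropped, and the gate given in the report was applied to them without clustering. Library depth was 152671978 UMIs over kept cells in CIA+VFX, 129564012 in CIA and 140944437 in Cont. UMIs were summed over the gated cells of a library and divided by their total to give CPM. Intervals were exact (Poisson, Clopper-Pearson, conditional binomial) at 95% and cover counting error only. A gene was measured with at least 50 UMIs in both libraries together and called at 1.5-fold with an interval that left out equality. The calculations were tested on simulated counts. Doublets were scored by simulated neighbours and left in, and their removal was an alternative.

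The text names, per comparison, 12 genes at each end of the ratio among those called. In the library where it was higher, such a gene had to reach 100 UMIs, 50 CPM and 0.5 times its CPM over all kept cells. Genes of the gate, of mitochondria, ribosomes and haemoglobin, and those without a name, were not eligible. It also names the 20 genes highest against other fibroblasts in all 3 libraries, the 15 most variable, and from each list up to 4 called members with the most UMIs. The gate, its members and the gene lists were chosen with earlier results of these data known, so they give no independent support. Alternatives were other gate minimums, stricter cell limits, thinning, other scalings, a mean over cells, subtraction of free RNA and other count minimums.

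Python 3.11.15, numpy 2.4.6, scipy 1.17.1, pandas 2.3.3, scikit-learn 1.9.0, matplotlib 3.10.9 and R 4.3.3 with edgeR 4.0.16 (TMM factors only) were used. Promoters came from RefSeq on GRCm38.p6, a build other than that of the counts, and were matched by symbol for both metallothionein genes shown.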

Additional observations from a re-analysis of the deposited data

How the results depend on the processing

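With 1 library per group, leaving out a replicate was not possible and no difference has a replicate check. No paired analysis was possible because each group has 1 library. The gate without a limit on Pi16 and Dpp4, the cells with a Cpz UMI and the levels without the top cell were alternatives chosen after seeing the data. Of alternatives to the ratios of shares 19 moved within counting error and 2 beyond it: without the Pi16 and Dpp4 limit the ratio was 0.683 for CIA over Cont and 0.432 for CIA+VFX over Cont. Of alternatives to the counts of called genes 31 stayed within 1.5 times and 8 did not. Thinning to 3000 UMIs gave 243 calls in CIA over Cont, 118 in CIA+VFX over CIA and 139 in CIA+VFX over Cont, and a minimum of 200 UMIs gave 553, 96 and 394, both with fewer genes measured. Of the thinned calls 160, 24 and 64 were called the same way without thinning and 4, 4 and 7 the opposite way. The other thinned calls were not called without thinning. For CIA+VFX against Cont a gate minimum of 6 UMIs gave 696 calls and the cells with a Cpz UMI 637. Among medians of lists 1097 alternatives stayed, 38 moved beyond the interval and 1 reversed: hypoxia and glycolysis for CIA+VFX against Cont was 0.25 after thinning. Of log2 ratios of single genes 9 reversed. After thinning Ndrg1 was 0.15 in CIA over Cont. In CIA+VFX over Cont Cdh4 was 0.20, Col4a1 -0.015 and Mmp3 0.54 after thinning, and Hsph1 was -0.54 in cells with a Cpz UMI. In CIA+VFX over CIA Atf3 was -0.12 and Vcl -0.72 in cells with a Cpz UMI. Vcl was -0.15 with a gate minimum of 6 UMIs, and Cxcl2 -0.19 without its top cell. Hgf in gated over other fibroblasts of CIA+VFX was 0.469-fold after thinning. The cause of these changes was not tested. With 467256 to 971751 UMIs in the gated cells of a library, a gene under about 50 UMIs in both libraries could not be placed. Values from few cells, such as the 9 Cont cells without a Cpz UMI, leave single cells to carry them.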
